A study of Mus musculus with 8 samples.

Results

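A set of 44 genes for mitosis and the spindle was followed in mouse leukemic progenitor cells treated with AG120, azacitidine or both. The set was defined by gene symbol, and all 44 were present in the deposited table of 12294 genes. The cells, which the labels call I1DN, had been transplanted into mice. The mice received AG120 with AZA, AG120 alone, AZA alone or vehicle for 5 days, with 2 libraries in each of the 4 groups and 8 in all. AG120 is ivosidenib, an inhibitor of mutant IDH1, and AZA is azacitidine, a cytidine analogue that traps DNA methyltransferases. CD11b-negative, cKit-positive progenitors were then sorted per mouse, and polyadenylated RNA was read from its 3′ end (QuantSeq). All groups, the Vehicle controls included, thus carried the same I1DN leukemia. The sources used here do not say what strain or age the mice were, nor whether each library came from another mouse, so the p-values measure only the spread between these libraries, which may be technical. In such bulk RNA, fewer cells in mitosis and less RNA per mitotic cell cannot be told apart.

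Most of these genes are transcribed late in the cell cycle. CDK1 bound to a B cyclin drives a cell into mitosis, Aurora and Polo kinases build the spindle, and the spindle checkpoint holds back the anaphase-promoting complex until every chromosome is attached. The complex, activated by Cdc20, then marks securin and cyclin B for destruction, and sister chromatids separate. In bone marrow these genes are used by dividing progenitors of every lineage. Their promoters often hold a cell cycle genes homology region (CHR), to which the MuvB-containing complexes DREAM and B-MYB-MuvB bind, and CCAAT boxes, to which NF-Y binds.

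The promoters of the 2 members that passed the test in any comparison, Cdc20 and Pttg1, differ in these letters. They are shown with those of Ccnb1, Prc1 and Bub1, which each had the smallest p of the members with a searched motif before the start in at least 1 comparison. The sequences are the 250 bases before the RefSeq start in GRCm38.p6, 5′ to 3′ on the gene's strand, at chr4:118437344-118437593 (minus strand) for Cdc20, chr11:43425982-43426231 (minus strand) for Pttg1, chr13:100786487-100786736 (minus strand) for Ccnb1, chr7:80294201-80294450 (plus strand) for Prc1 and chr2:127831860-127832109 (minus strand) for Bub1. Capitals mark a CHR (TTTGAA, or TTCAAA on the other strand, or TTCGAA) or a CCAAT box (CCAAT, or ATTGG on the other strand).
Cdc20: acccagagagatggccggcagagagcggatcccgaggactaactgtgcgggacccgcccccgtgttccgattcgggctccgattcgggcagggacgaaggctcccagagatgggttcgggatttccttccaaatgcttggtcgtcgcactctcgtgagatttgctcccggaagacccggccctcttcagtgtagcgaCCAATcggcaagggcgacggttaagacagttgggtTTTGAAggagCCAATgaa
Pttg1: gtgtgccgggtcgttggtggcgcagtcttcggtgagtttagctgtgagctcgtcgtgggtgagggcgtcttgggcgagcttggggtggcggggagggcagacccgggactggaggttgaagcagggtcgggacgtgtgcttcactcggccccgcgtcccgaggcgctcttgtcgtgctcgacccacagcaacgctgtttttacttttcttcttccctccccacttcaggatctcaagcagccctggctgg
Ccnb1: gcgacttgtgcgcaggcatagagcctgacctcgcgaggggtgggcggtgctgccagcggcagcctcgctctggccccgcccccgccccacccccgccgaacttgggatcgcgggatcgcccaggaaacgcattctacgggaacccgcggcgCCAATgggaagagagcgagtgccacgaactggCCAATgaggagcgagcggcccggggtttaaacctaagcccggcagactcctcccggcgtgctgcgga
Prc1: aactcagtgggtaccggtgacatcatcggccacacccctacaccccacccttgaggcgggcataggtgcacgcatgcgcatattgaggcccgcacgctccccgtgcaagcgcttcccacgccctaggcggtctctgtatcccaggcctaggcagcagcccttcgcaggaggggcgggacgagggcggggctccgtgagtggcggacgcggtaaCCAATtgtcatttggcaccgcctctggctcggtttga
Bub1: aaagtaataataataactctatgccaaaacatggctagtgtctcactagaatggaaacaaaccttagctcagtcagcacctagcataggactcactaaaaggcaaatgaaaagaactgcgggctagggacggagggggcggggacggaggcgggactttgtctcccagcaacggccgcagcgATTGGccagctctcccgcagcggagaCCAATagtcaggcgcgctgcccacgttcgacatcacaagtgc
Cdc20 holds TTTGAA 18 bases before its start, between 2 CCAAT boxes. Pttg1 holds none of these letters, and Ccnb1 holds CCAAT boxes but no CHR of the letters searched. The CHR letters of Prc1 and Bub1 reach or lie past the printed end, from -5 and 15 relative to the start. Over windows from 250 bases before to 50 bases after the start, 37 of the 44 members matched 40 RefSeq windows. CHR letters stood in 33 of the 40 (82.5%), against 19.2% of all 32851 windows in the table, and CCAAT letters in 32 (80%), against 37.4%. Both stood in 30 (75%), against 7.53% of all windows, with the motifs counted separately where they share bases. Counted by gene, 27 members held both, and Birc5, Mad2l1, Ncaph, Nusap1 and Pttg1 held neither. The members without a window in the table were Aurkb, Ccna2, Cdc25c, Incenp, Kif20a, Smc4 and Tpx2. A match of letters is a description of the promoter and does not show that a factor binds it.

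At most 1 member of the set was called in any comparison, which with 2 libraries a group does not show an absence of change. On the deposited log2 CPM scale (log2 of CPM, the counts of a gene scaled to a common library total), 35 of the 44 members averaged at least 5 over the 8 libraries, as did 4760 of all genes. The SD over the 8 libraries, drug effects included, had a median of 0.23 log2 units in those 35 members and 0.29 in those 4760 genes. Differences were tested with limma and called at a Benjamini-Hochberg adjusted p under 0.05 over all 12294 genes. With AG120 over both AZA levels, 4 libraries against 4, Cdc20 was the member called (1 of 44, 2.27%, against 5.85% of all genes), and it was higher. In AG120_AZA against Vehicle, Pttg1 was the member called (2.27%, against 3.02% of all genes), and in AG120_AZA against AZA, Cdc20 (2.27%, against 2.26%). No member was called in AG120 against Vehicle, where 0.578% of all genes were. In AZA against Vehicle, AG120_AZA against AG120, AZA over both AG120 levels and the AG120 by AZA interaction, no member and 0% of all genes were called.

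Unadjusted p-values under 0.05 were found for 7 members with AG120 over both AZA levels (15.9%, against 22.9% of all genes), all of them higher: Ccnb1, Cdc25b, Cdc20, Pttg1, Plk1, Ttk and Cdca8. The count was 4 in AG120 against Vehicle (9.09%, against 13.1%) and 1, Pttg1, in AZA against Vehicle (2.27%, against 3.51%). In AG120_AZA against Vehicle it was 6 (13.6%, against 21.4%), with Ccnb1, Cdc20, Pttg1, Plk1 and Birc5 higher and Anln lower. It was 5 in AG120_AZA against AG120 (11.4%, against 10.1%) and 3 in AG120_AZA against AZA (6.82%, against 19.6%). The interaction gave 2 members, Bub1 and Aurkb (4.55%, against 6.22%), and AZA over both AG120 levels gave 2, Pttg1 and Anln (4.55%, against 6.19%). The members' share was below that of all genes in 7 of these 8 comparisons, several times by little. The comparisons share libraries and the counts are 1 to 7 members, so the tally does not show that the set moved less.

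The direction of the members leaned upward in each group against Vehicle, with AZA alone as well as with AG120. The log2 difference was above 0 in 33 of 44 members in AG120 against Vehicle (75%, against 50.2% of all genes) and in 28 with AG120 over both AZA levels (63.6%, against 50.7%). It was above 0 in 29 in AG120_AZA against Vehicle (65.9%, against 51.2%) and in 28 in AZA against Vehicle (63.6%, against 48.9%). These comparisons share their Vehicle libraries. It was above 0 in 23 in AG120_AZA against AG120 (52.3%, against 51.9%) and in 26 in AG120_AZA against AZA (59.1%, against 52.1%). The median member difference was 0.13 log2 units in AG120 against Vehicle, 0.18 in AG120_AZA against Vehicle, 0.12 with AG120 over both AZA levels and 0.029 in AZA against Vehicle, where the medians of all genes were 0.0019, 0.021, 0.0075 and -0.0096. The median of the set was thus a change of under 0.2 log2 units in each of these comparisons. The SD between replicates of the members' median log2 CPM was 0.22, but that is a spread of levels and not of these differences. By library, the members' median deviation from the Vehicle mean was 0.23 and 0.033 in AG120 replicates 1 and 2. It was 0.29 and 0.087 in AG120_AZA, 0.060 and 0.0091 in AZA, and 0.045 and -0.045 in Vehicle. The lean with AG120 was thus larger in replicate 1.

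**Figure D1:**
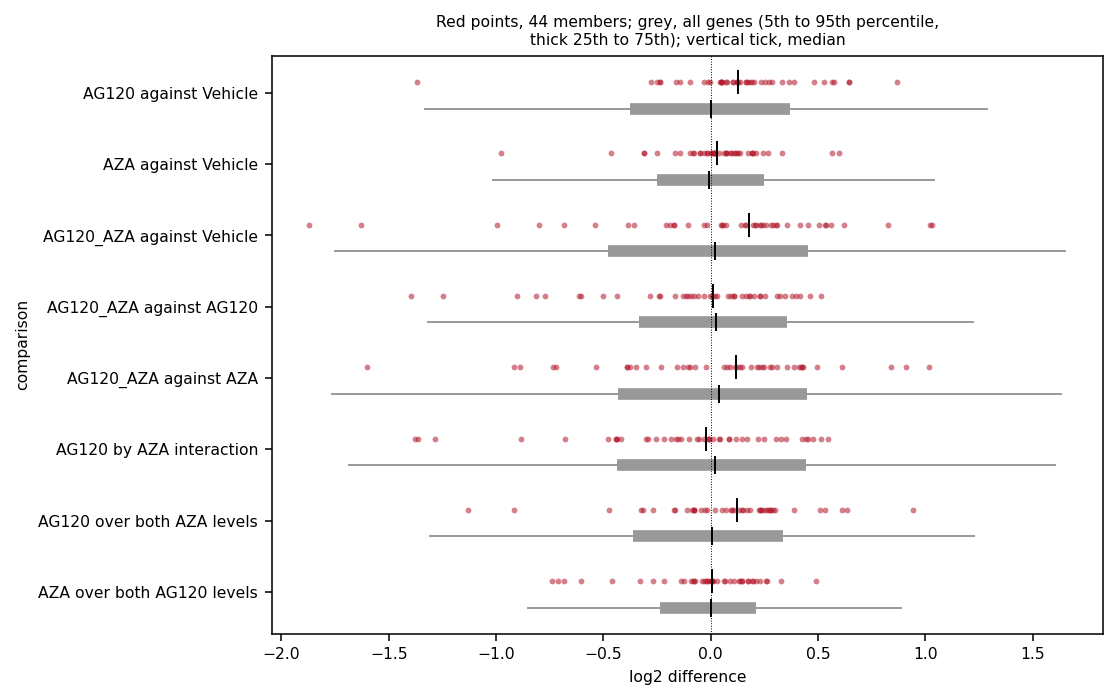
Log2 difference (horizontal axis) of the 44 members (red points) and of all 12294 genes (grey) in each of the 8 comparisons; vertical ticks are medians, thin lines run from the 5th to the 95th percentile of all genes and thick bars from the 25th to the 75th. The members' medians lie between -0.022 and 0.18, and the lowest point is Kif20b or Ckap2 in every comparison but the interaction, where it is Aurkb.

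The intervals give a range for each member's difference from the spread between these libraries, gene by gene and unadjusted over the 44 members. With AG120 over both AZA levels, the 95% interval of the difference lay within 1 log2 unit of 0 for 38 of 44 members (86.4%, against 50.3% of all genes). It did so for 33 members in AG120 against Vehicle (75%, against 33.7%), for 34 in AZA against Vehicle (77.3%, against 42.5%) and for 29 in AG120_AZA against Vehicle (65.9%, against 29.9%). These shares are not matched for expression level: 35 of 44 members averaged at least 5 log2 CPM, against 4760 of 12294 genes. How far the gap to all genes follows expression level was not tested. Smaller changes in these members lie inside the intervals. All 4 libraries with AG120 lay above all 4 without it in 6 members, Ccnb1, Cdc25b, Cdc20, Bub3, Ttk and Cdca8 (13.6%, against 8% of all genes). In no member did they all lie below (0%, against 5.99%).

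**Figure D2:**
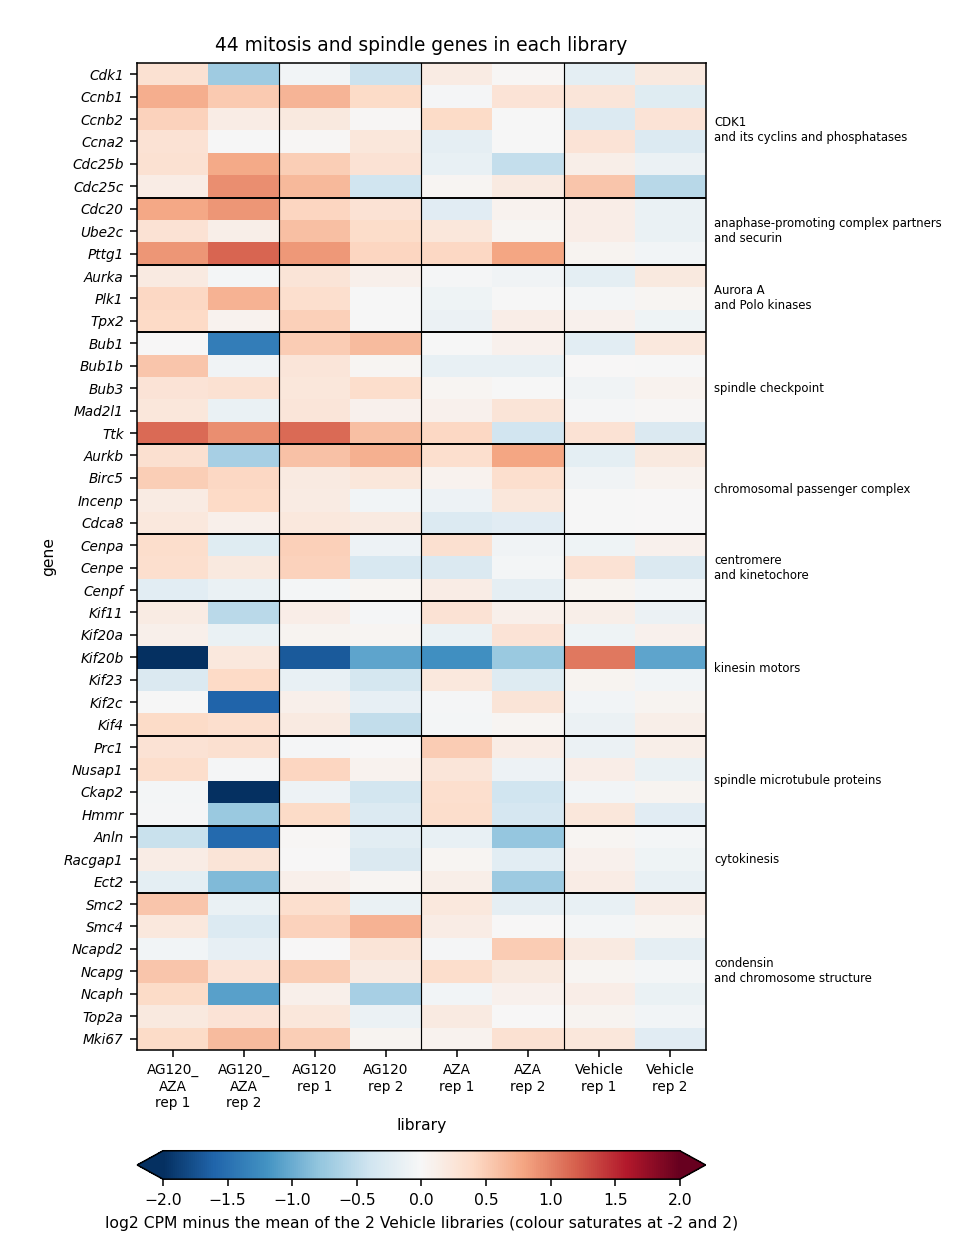
Each member's log2 CPM in each library minus the mean of the 2 Vehicle libraries, by role of the gene (rows) and by library (columns). Cdc20, Pttg1 and Ttk are red in the AG120_AZA and AG120 columns, and Bub1, Kif2c, Ckap2 and Anln are dark blue in AG120_AZA replicate 2 and not in AG120_AZA replicate 1.

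The library AG120_AZA replicate 2 stood apart from the other 7 and touches the AG120_AZA results. Its median correlation with the other libraries over all genes was 0.874, where those of the others ran from 0.900 to 0.921. It held the lowest of the 8 values in 14 members (31.8%, against 19.7% of all genes) and the highest in 10 (22.7%, against 24.7%). AG120_AZA replicate 1 held the lowest in 2 (4.55%, against 8.26% of all genes) and the highest in 11 (25%, against 7.82%). Values without AG120_AZA replicate 2 are given below for members that it moved. The library totals were lost in the authors' normalization, so depth is unknown. Counted as distinct values below it, the median gene stood on at least 105 reads in AG120_AZA replicate 2, the lowest of the 8 libraries, and on at least 149 in AG120_AZA replicate 1, the highest.

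Cdc20, the activator of the anaphase-promoting complex, rose with AG120. Its log2 CPM was 8.01 and 8.13 in the AG120_AZA libraries, 7.68 and 7.54 in AG120, 7.02 and 7.31 in AZA and 7.37 and 7.12 in Vehicle. Every library with AG120 lay above every library without it, and the AG120_AZA pair lay highest. The mean was 8.07 ± 0.087 in AG120_AZA, 7.61 ± 0.10 in AG120, 7.17 ± 0.21 in AZA and 7.25 ± 0.18 in Vehicle (SD, n = 2 each). With AG120 over both AZA levels the difference was 0.64 ± 0.16 log2 units (SE, 95% interval 0.29 to 0.98, 1.55-fold, limma adjusted p = 0.0388). In AG120_AZA against AZA it was 0.91 ± 0.20 (1.88-fold, adjusted p = 0.0450), and in AG120_AZA against Vehicle 0.83 ± 0.20 (adjusted p = 0.0542), which did not pass. AG120 against Vehicle gave 0.36 (95% interval -0.082 to 0.81, adjusted p = 0.486) and AZA against Vehicle -0.081 (adjusted p = 1). The interaction was 0.55 with a 95% interval from -0.084 to 1.17.

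The Cdc20 call with AG120 over both AZA levels depended on single libraries. It was lost without AG120_AZA replicate 1 (adjusted p = 0.102), AG120_AZA replicate 2 (0.0984), AG120 replicate 1 (0.111), AZA replicate 1 (0.120), AZA replicate 2 (0.0703) or Vehicle replicate 2 (0.0802), with differences from 0.52 to 0.66. It was kept without AG120 replicate 2 (adjusted p = 0.0318) or Vehicle replicate 1 (0.0227). In AG120_AZA against AZA it was lost without AG120_AZA replicate 1 (0.0581) or replicate 2 (0.273), AG120 replicate 1 (0.0713) or replicate 2 (0.0696), and AZA replicate 1 (0.281) or replicate 2 (0.0674), with differences from 0.76 to 1.05. Without a mean-variance trend in the fit the adjusted p was 0.130 and 0.178 in these 2 comparisons.

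The 3′ end of Cdc20 (chr4:118432901-118437352, minus strand, mm10) overlaps an exon of Elovl1, a fatty acid elongase gene, on the opposite strand within its last 1000 bases. The sources used here do not say whether reads were counted by strand. Whether the reads of the 2 genes were separated there is therefore unknown. Elovl1 had 8.43 and 8.59 in the AG120_AZA libraries, 8.24 and 8.07 in AG120, 7.60 and 7.96 in AZA and 7.85 and 7.77 in Vehicle. It too was higher in every library with AG120 than in every one without, by 0.54 ± 0.15 log2 units (adjusted p = 0.0522), which did not pass.

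Pttg1 encodes securin, the inhibitor of separase and a substrate of the complex that Cdc20 activates. Its log2 CPM was 6.75 and 7.02 in the AG120_AZA libraries, 6.72 and 6.29 in AG120, 6.27 and 6.65 in AZA and 5.92 and 5.81 in Vehicle. Both Vehicle libraries lay below the other 6. The mean was 6.89 ± 0.19 in AG120_AZA, 6.51 ± 0.31 in AG120, 6.46 ± 0.27 in AZA and 5.86 ± 0.076 in Vehicle (SD, n = 2 each). Pttg1 rose in AG120_AZA against Vehicle by 1.02 ± 0.24 log2 units (SE, 95% interval 0.49 to 1.56, 2.03-fold, adjusted p = 0.0482). AG120 against Vehicle gave 0.64 (adjusted p = 0.293) and AZA against Vehicle 0.60 (adjusted p = 1), and neither passed. The call was kept without AG120_AZA replicate 1 (adjusted p = 0.0498) and lost without AG120_AZA replicate 2 (0.299), AG120 replicate 1 (0.0618) or replicate 2 (0.0597), AZA replicate 1 (0.0518) or replicate 2 (0.0548), and Vehicle replicate 1 (0.115) or replicate 2 (0.150). It was also lost under 5 of the 7 other settings, with adjusted p from 0.0551 to 0.170. No annotated exon of another gene overlaps its last 1000 bases (chr11:43420250-43426251, minus strand). Ube2c, the ubiquitin-conjugating enzyme of the same complex, ranged from 6.20 in Vehicle replicate 2 to 6.93 in AG120 replicate 1, and its difference with AG120 over both AZA levels was 0.27 and did not pass.

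**Figure D3:**
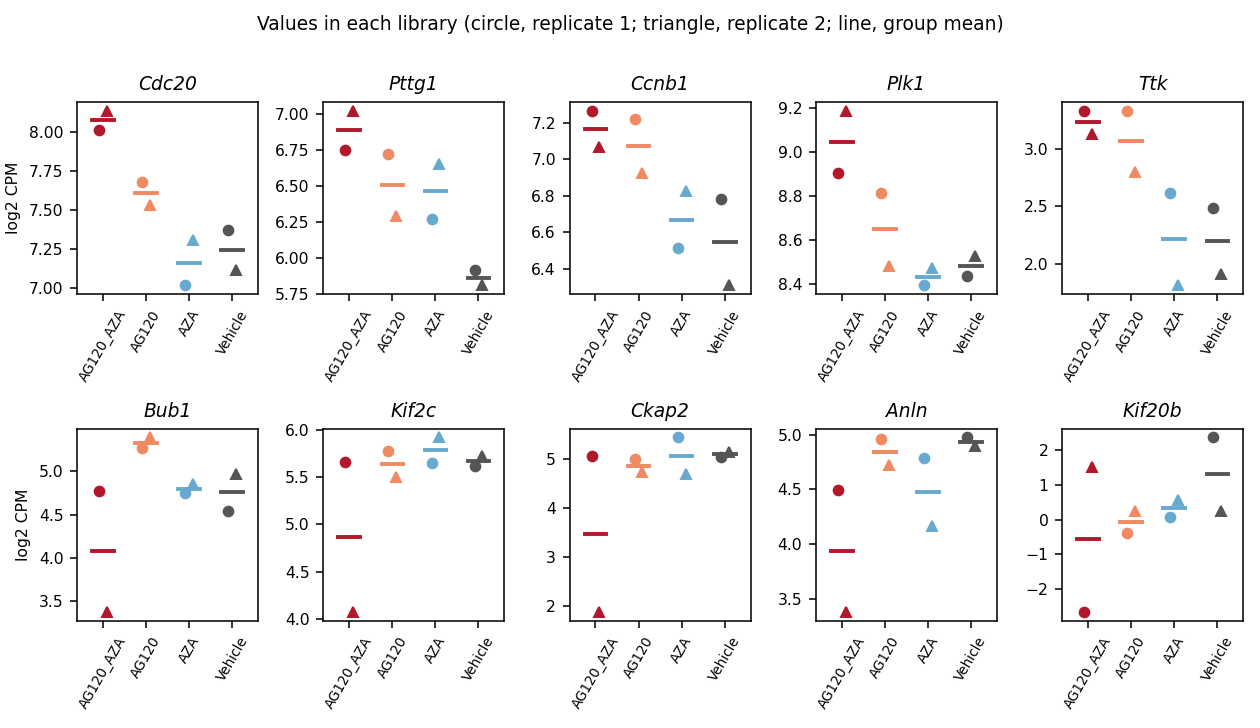
Log2 CPM (vertical axes) of 10 members in each library, by group; circles are replicate 1, triangles replicate 2 and lines the group means. Cdc20, Ccnb1 and Ttk have all 4 AG120-treated libraries above the other 4, while in Bub1, Kif2c, Ckap2 and Anln AG120_AZA replicate 2 lies below the other 7 libraries.

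Of CDK1, its cyclins and the CDC25 phosphatases, 5 of 6 were above 0 with AG120 over both AZA levels and none passed the test. Ccnb1, cyclin B1, the partner with which CDK1 enters mitosis, had 7.26 and 7.06 in the AG120_AZA libraries, 7.22 and 6.93 in AG120, 6.51 and 6.82 in AZA and 6.78 and 6.31 in Vehicle. The 4 libraries with AG120 lay above the 4 without it, and the difference was 0.51 ± 0.16 (95% interval 0.16 to 0.86, adjusted p = 0.0840). Cdc25b, a phosphatase that activates CDK1, had 3.40 and 3.85 in the AG120_AZA libraries, 3.58 and 3.38 in AG120, 2.94 and 2.62 in AZA and 3.21 and 2.97 in Vehicle, and was also higher in all 4 libraries with AG120 (0.61 ± 0.28, adjusted p = 0.218). Cdk1 itself gave -0.27, and -0.061 without AG120_AZA replicate 2, with a lowest value of 7.81 in AG120_AZA replicate 2, against 8.10 to 8.82 in the others. Ccnb2, Ccna2 and Cdc25c gave differences from 0.11 to 0.28. The transcript end of Ccna2 overlaps an exon of Exosc9 on the other strand, as those of Ube2c, Kif20a, Prc1 and Ncapg overlap Tnnc2, Cdc23, Rccd1 and Lcorl, so their counts carry the same uncertainty as that of Cdc20.

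Aurora A, Polo-like kinase 1 and Tpx2, which activates Aurora A on spindle microtubules, were each above 0 with AG120, and none passed. Plk1 had 8.91 and 9.19 in the AG120_AZA libraries, 8.82 and 8.48 in AG120, 8.39 and 8.47 in AZA and 8.44 and 8.53 in Vehicle. AG120_AZA lay highest, but AG120 replicate 2 lay within the range of the libraries without AG120. Its difference was 0.39 ± 0.15 with AG120 over both AZA levels (adjusted p = 0.147) and 0.56 ± 0.20 in AG120_AZA against Vehicle (adjusted p = 0.137), where it was 0.42 without AG120_AZA replicate 2. Aurka and Tpx2 gave 0.15 and 0.23 with AG120 over both AZA levels.

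Of the 5 spindle checkpoint genes, 4 were above 0 with AG120 over both AZA levels and none passed. Ttk, the kinase MPS1 that starts checkpoint signalling at kinetochores, had 3.33 and 3.13 in the AG120_AZA libraries, 3.33 and 2.80 in AG120, 2.62 and 1.81 in AZA and 2.49 and 1.91 in Vehicle. Its 4 values with AG120 exceeded the 4 without, by 0.94 ± 0.34 (95% interval 0.19 to 1.69, adjusted p = 0.127), the largest difference of the 44 members in that comparison. The lowest of these Ttk values rests on at least 21 reads. Bub3, which carries Bub1 and Bub1b to the kinetochore, had all 4 values with AG120 above the 4 without, and its difference was 0.28 ± 0.13 (adjusted p = 0.226). Bub1, a checkpoint kinase, had 4.77 and 3.38 in the AG120_AZA libraries, 5.26 and 5.39 in AG120, 4.74 and 4.85 in AZA and 4.55 and 4.97 in Vehicle. AG120 was highest and AG120_AZA replicate 2 lowest. Its interaction, with the smallest p of the set, did not pass (adjusted p = 0.794). Bub1b and Mad2l1 gave 0.26 and 0.018. The count above 0 depends on 1 library, since Bub1 with AG120 over both AZA levels was -0.076, and 0.33 without AG120_AZA replicate 2.

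The chromosomal passenger complex joins Aurora B (Aurkb) with Incenp, survivin (Birc5) and borealin (Cdca8) and corrects faulty attachments. None of the 4 passed. Cdca8 had 7.44 and 7.33 in the AG120_AZA libraries, 7.42 and 7.40 in AG120, 6.95 and 6.99 in AZA and 7.22 and 7.22 in Vehicle, higher in all 4 libraries with AG120 by 0.30 ± 0.13 (adjusted p = 0.194). Aurkb had 4.56 and 3.59 in the AG120_AZA libraries, 4.83 and 4.95 in AG120, 4.59 and 5.03 in AZA and 4.05 and 4.44 in Vehicle, with AG120_AZA replicate 2 lowest, and gave 0.64 in AG120 against Vehicle (adjusted p = 0.497), 0.56 in AZA against Vehicle (adjusted p = 1) and -0.17 in AG120_AZA against Vehicle (adjusted p = 0.826), and 0.32 without AG120_AZA replicate 2. Birc5 and Incenp gave 0.22 and 0.13 with AG120 over both AZA levels.

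None of the 3 centromere and kinetochore genes passed, and their differences with AG120 over both AZA levels lay between -0.080 and 0.25. Cenpf, an outer kinetochore protein, had the smallest SD of all members over the 8 libraries, 0.12, with values from 5.51 to 5.87. Cenpe, the kinetochore kinesin, had 6.79 and 6.65 in the AG120_AZA libraries, 6.92 and 6.14 in AG120, 6.16 and 6.41 in AZA and 6.74 and 6.17 in Vehicle, and the groups overlapped (0.25 ± 0.21 with AG120 over both AZA levels, adjusted p = 0.496). Cenpa, the centromeric histone, gave 0.055.

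Of the 6 kinesin motors, 1 (Kif4, a chromosome arm kinesin) was above 0 with AG120 over both AZA levels, and none passed. Kif2c (MCAK), which depolymerizes microtubules at centromeres, had 5.67 and 4.07 in the AG120_AZA libraries, 5.78 and 5.50 in AG120, 5.65 and 5.92 in AZA and 5.62 and 5.73 in Vehicle. The low mean of AG120_AZA rests on replicate 2: the difference from Vehicle was -0.80 ± 0.42 (adjusted p = 0.298), and -0.0052 without that library. Kif23, a subunit of centralspindlin, had 4.80 and 5.48 in the AG120_AZA libraries, 4.93 and 4.72 in AG120, 5.29 and 4.83 in AZA and 5.13 and 5.03 in Vehicle, and the groups overlapped. Kif20b had -2.65 and 1.51 in the AG120_AZA libraries, -0.37 and 0.24 in AG120, 0.08 and 0.56 in AZA and 2.36 and 0.24 in Vehicle. Its lowest library rests on at least 2 reads and its SE in AG120_AZA against Vehicle was 1.37, so no direction can be read for it. Kif11, which pushes spindle poles apart, and Kif20a gave -0.17 and -0.026 with AG120 over both AZA levels, and 0.015 and 0.035 without AG120_AZA replicate 2.

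None of the 7 spindle microtubule and cytokinesis genes passed, and AG120_AZA replicate 2 was the lowest library in 4 of them, Ckap2, Hmmr, Anln and Ect2. Ckap2, which stabilizes spindle microtubules, had 5.07 and 1.89 in the AG120_AZA libraries, 5.00 and 4.74 in AG120, 5.45 and 4.71 in AZA and 5.06 and 5.16 in Vehicle. Its difference in AG120_AZA against Vehicle was -1.63 ± 0.75 (adjusted p = 0.238) and -0.036 without AG120_AZA replicate 2. Anln (anillin), the scaffold of the contractile ring, had 4.49 and 3.38 in the AG120_AZA libraries, 4.96 and 4.72 in AG120, 4.78 and 4.16 in AZA and 4.97 and 4.90 in Vehicle, and its difference of -0.998 ± 0.39 (adjusted p = 0.175) was -0.44 without that library. Bub1 likewise moved to 0.015, against -0.68 with it. When AG120_AZA replicate 1 was left out instead, Bub1, Kif2c, Ckap2 and Anln were called lower in AG120_AZA against Vehicle. Prc1, which bundles the microtubules of the central spindle, had 6.13 and 6.16 in the AG120_AZA libraries, 5.81 and 5.84 in AG120, 6.35 and 5.99 in AZA and 5.73 and 5.95 in Vehicle, and gave 0.33 ± 0.23 in AZA against Vehicle (adjusted p = 1). Hmmr and Nusap1 gave -0.17 and 0.17 with AG120 over both AZA levels, where Hmmr was 0.016 without AG120_AZA replicate 2. Ect2, the activator of RhoA at the cleavage site, and Racgap1 gave -0.080 and 0.072, where Ect2 was 0.088 without that library.

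Condensin and the chromosome surface were likewise without a call. Mki67, the proliferation marker Ki-67 that coats mitotic chromosomes, had 8.67 and 8.92 in the AG120_AZA libraries, 8.79 and 8.34 in AG120, 8.37 and 8.60 in AZA and 8.52 and 8.07 in Vehicle. The groups overlapped, and the difference with AG120 over both AZA levels was 0.29 ± 0.16 (95% interval -0.051 to 0.63, adjusted p = 0.295). Top2a, the topoisomerase that untangles sister chromatids, stayed between 9.20 and 9.59 in all 8 libraries. The condensin subunit Ncaph had 6.84 and 5.38 in the AG120_AZA libraries, 6.57 and 5.81 in AG120, 6.42 and 6.56 in AZA and 6.61 and 6.33 in Vehicle, low in AG120_AZA replicate 2 and in AG120 replicate 2. The condensin ATPases Smc2 and Smc4 gave 0.15 and 0.24 with AG120 over both AZA levels, and Ncapd2 and Ncapg gave -0.11 and 0.24. Smc4 was highest in the 2 AG120 libraries, at 6.66 and 6.91, against 6.17 and 6.25 in Vehicle (0.58 in AG120 against Vehicle, not called).

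**Figure D4:**
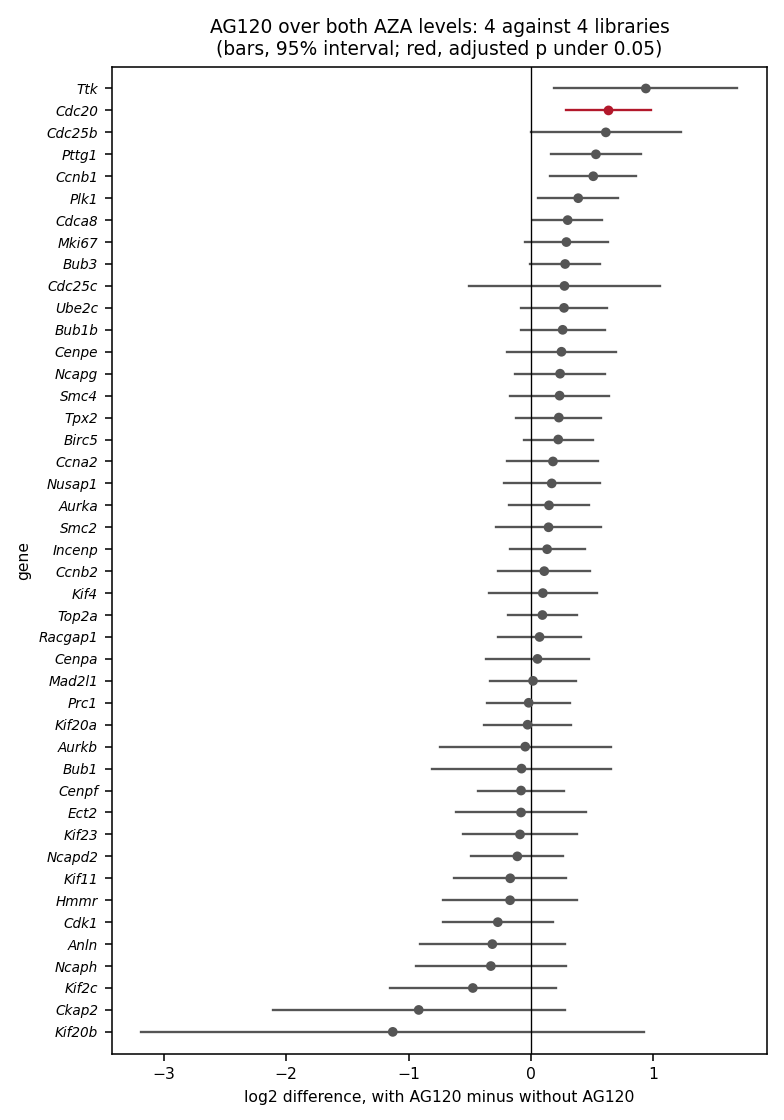
Log2 difference with AG120 minus without AG120, over both AZA levels, for the 44 members (points) with 95% intervals (bars); red marks an adjusted p under 0.05. Cdc20, at 0.64, is the member in red, and 28 of the 44 points lie above 0.

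Genes around the set were followed in lists of the same machinery. In AG120_AZA against Vehicle and with AG120 over both AZA levels, none of 34 measured other kinetochore and centromere genes, 21 anaphase-promoting complex subunits and inhibitors, 16 cohesin and separase genes, 3 condensin II genes, 8 centriole genes, 15 mitotic entry genes and 19 DREAM and MuvB genes was called. Of 31 other mitotic kinesins and spindle assembly genes, Psrc1, a spindle microtubule protein, was called higher in AG120_AZA against Vehicle (2.16 ± 0.44, adjusted p = 0.0265). Psrc1 had 5.33 and 4.88 in the AG120_AZA libraries, 3.86 and 2.66 in AG120, 3.90 and 3.58 in AZA and 3.06 and 2.85 in Vehicle. This call was lost without AG120_AZA replicate 1 (adjusted p = 0.0709) or replicate 2 (0.115) and without Vehicle replicate 1 (0.0726) or replicate 2 (0.0924), and without a mean-variance trend (0.109). Nearest to the threshold with AG120 over both AZA levels were Sgo1, the shugoshin that protects centromeric cohesin (0.85 ± 0.25, adjusted p = 0.0649), and Mad1l1, the checkpoint partner of Mad2 (0.58 ± 0.18, adjusted p = 0.0742). Cdca3, a trigger of mitotic entry, gave 0.50 ± 0.15 (adjusted p = 0.0774), and Mybl2, the B-MYB subunit that turns MuvB into an activator, gave 0.63 ± 0.23 (adjusted p = 0.132). The median difference with AG120 over both AZA levels was 0.15 log2 units in the other kinetochore genes, 0.10 in the anaphase-promoting complex genes and -0.20 in the DREAM and MuvB genes, of which 5 of 19 were above 0.

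Markers of cell identity were followed in lists chosen with earlier results of these data known, so their counts cannot be weighed against those of the set. With AG120 over both AZA levels, 5.85% of all genes were called. Of 12 mast cell, basophil and eosinophil markers, 12 were above 0 and 7 were called higher. Of 15 erythroid markers, 9 were above 0 and 7 were called higher, so the erythroid list was mixed. Of 7 measured stem and progenitor markers, 6 were called lower, as were 4 of 7 monocyte and dendritic and 1 of 11 neutrophil markers. Of 5 megakaryocyte, 2 T and NK cell, 1 B cell and 1 stromal markers measured, none was called. The summed mast cell, basophil and eosinophil markers reached 2339 to 3711 CPM in AG120_AZA and 3620 to 3814 in AG120, against 1470 to 1471 in AZA and 938 to 1363 in Vehicle. In Vehicle 3 and 2 of these 12 markers sat at the library's lowest value and in each AZA library 1 did, where none did in AG120_AZA or AG120. The summed erythroid markers were 3930 to 4077 CPM in AG120_AZA and 720 to 2003 in AG120, against 2029 to 4844 in AZA and 1741 to 2535 in Vehicle. The summed neutrophil markers were 1075 to 2840 CPM in AG120_AZA and 3954 to 6421 in AG120, against 11096 to 15427 in AZA and 2872 to 13040 in Vehicle. The summed stem and progenitor markers were 269 to 520 CPM in AG120_AZA and 419 to 550 in AG120, against 617 to 830 in AZA and 646 to 1080 in Vehicle. The summed monocyte and dendritic markers were 219 to 274 CPM in AG120_AZA and 218 to 465 in AG120, against 558 to 753 in AZA and 464 to 1395 in Vehicle. Kit, by which the cells were sorted, had 4.51 and 4.26 in the AG120_AZA libraries, 5.15 and 5.84 in AG120, 6.65 and 5.54 in AZA and 6.31 and 6.59 in Vehicle, lower with AG120 by 1.33 log2 units (-1.33 ± 0.27, adjusted p = 0.0162). Itgam, which encodes CD11b, had 3.28 and 2.85 in the AG120_AZA libraries, 2.50 and 3.76 in AG120, 4.53 and 3.19 in AZA and 2.10 and 4.34 in Vehicle. The part of these shifts in the Cdc20 and Pttg1 results was not tested.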

How the data were processed

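The table the authors deposited holds log2 CPM values of 12294 mouse genes in 8 libraries. The submitters' processing notes name the mm10 build and, with no role or order, edgeR 3.28.1, limma 3.42.2, R 3.6.2, Subread 1.6.3, featureCounts, HISAT2 2.1.0, cutadapt 1.14 and bcl2fastq 2.17.1.14. The deposited values had been brought to one distribution: the highest value is 13.37 in each library, and the sum of 2^value lies between 999525 and 999562. Depth is lost by this, and a count of distinct values gives a lower bound on reads.

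Values were used as deposited, unfiltered. limma 3.58.1 in R 4.3.3 (lmFit, eBayes with trend) was fitted over all genes and all 8 libraries. A model of 4 group means (4 residual degrees of freedom) gave the pairwise comparisons and the interaction, and an additive model (5) gave each drug over both levels of the other. P-values are two-sided, adjusted by Benjamini-Hochberg over all 12294 genes within each comparison, and an adjusted p under 0.05 makes a call. The script was tested on simulated data. Differences carry moderated SE, levels SD (n = 2).

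The members and all gene lists were chosen with earlier results of these data known. Library values are given for members called in any comparison, for the 3 highest and 3 lowest differences in 4 comparisons (each group against Vehicle, and AG120 over both AZA levels), and for the member of each role with the smallest p. Kit and Itgam check the sort, and Bub1 and Elovl1 were added after their values were seen. Gene spans are from GENCODE M21 (GRCm38), promoters from RefSeq (GRCm38.p6). Alternatives were no trend, vooma weights, a filter on mean log2 CPM of at least 5, log2(CPM + 1), a common library median, a fit to the compared groups, a replicate block, and each library left out. Bisulfite data were not analysed here.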

Additional observations from a re-analysis of the deposited data

How the results depend on the processing

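The median difference of the 44 members moved by less than 0.22 log2 units under every alternative in all 8 comparisons. That limit is the SD between replicates of the members' median log2 CPM, a level and not a difference. It exceeds the largest median difference, 0.18 in AG120_AZA against Vehicle, so it does not show that the medians were stable. The counts of 0 calls in AG120 against Vehicle, AZA against Vehicle, AZA over both AG120 levels and the interaction stayed 0. The number of members called with AG120 over both AZA levels was 0 without a mean-variance trend, and 0 to 1 when single libraries were left out. In AG120_AZA against AZA it was 0 without the trend, among genes of mean log2 CPM of at least 5, in the fit to the compared groups and with the replicate block, and 0 to 3 with a library left out. In AG120_AZA against Vehicle it was 0 under those 4 settings and with vooma weights, 2 (Cdc20 and Pttg1) on log2(CPM + 1), and 0 to 5 with a library left out. In AG120_AZA against AG120 it was 0 to 3 with a library left out. The highest of these counts, 5, 3 and 3, came without AG120_AZA replicate 1, when AG120_AZA rests on its replicate 2 and that lone library is assumed to vary like the other groups. Of the other listed cell cycle genes, 3 were called in AG120_AZA against Vehicle, 1 in AG120_AZA against AZA and 2 with AG120 over both AZA levels, with 0 to 8, 0 to 7 and 0 to 6 over all alternatives. The cause of these changes was not tested.

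Among members with the lowest, highest or called differences, the sign turned for Kif20b in AG120_AZA against Vehicle without AG120_AZA replicate 1 (omissions gave -3.95 to 0.21), for Kif20b in AZA against Vehicle without Vehicle replicate 1 (-2.04 to 0.083) and for Ncaph in AG120 against Vehicle without AG120 replicate 2 (-0.66 to 0.11). Without AG120_AZA replicate 2 the sign turned in 8 of all 44 members in AG120_AZA against Vehicle, in 9 in AG120_AZA against AZA and in 6 with AG120 over both AZA levels; any other single omission turned 0 to 8, 0 to 6 and 0 to 6. None of these members was called in that comparison. The deviations of same-numbered libraries correlated from -0.11 to 0.19 over the 6 pairs of groups, over all genes. That does not exclude that same-numbered libraries shared a litter or day. Replicate 1 had the higher members' median deviation from the Vehicle mean in each of the 4 groups. With the replicate block the adjusted p was 0.0487 for Cdc20 with AG120 over both AZA levels, 0.0589 for Cdc20 in AG120_AZA against AZA and 0.0608 for Pttg1 in AG120_AZA against Vehicle. With 2 libraries a group and unknown depth, differences of the size seen in most members were not detectable.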

Other observations

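Ccnd1, cyclin D1 of the G1 phase, had 2.87 and 1.27 in the AG120_AZA libraries, 2.95 and 3.30 in AG120, 4.32 and 4.42 in AZA and 5.23 and 5.00 in Vehicle. It fell by 2.15 log2 units with AG120 over both AZA levels (-2.15 ± 0.34 SE, limma adjusted p = 0.00447), was lower in 4 of 4 libraries with AG120 than in the 4 without, and stayed called with any single library left out. In AG120_AZA against Vehicle it fell by 3.05 (adjusted p = 0.00804), a call lost without AG120_AZA replicate 2 (-2.25, adjusted p = 0.0528) or a mean-variance trend (0.0770). Ccne1, cyclin E1, which acts at the start of S phase, had 5.84 and 5.89 in the AG120_AZA libraries, 5.12 and 5.21 in AG120, 4.72 and 5.19 in AZA and 4.59 and 4.83 in Vehicle. It rose by 1.16 ± 0.27 in AG120_AZA against Vehicle (adjusted p = 0.0447), and the call was kept with either AZA library left out and lost with any of the other 6 left out (adjusted p from 0.0700 to 0.237) or without a mean-variance trend (0.127).

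Of 5 measured CDK inhibitors, Cdkn2a, which encodes p16 and p19ARF, was called. It had 4.46 and 3.70 in the AG120_AZA libraries, 5.23 and 4.12 in AG120, 1.73 and 2.30 in AZA and 3.89 and 2.68 in Vehicle. It rose by 1.73 ± 0.38 with AG120 over both AZA levels (adjusted p = 0.0214), and the call was lost without AG120_AZA replicate 1 (0.0753), AG120 replicate 1 (0.0998), AZA replicate 1 (0.0712) or Vehicle replicate 2 (0.0610), and without a mean-variance trend (0.0838). None of 37 DNA replication genes was called in either comparison, and 24 of the 37 were above 0 in both. Tyms, thymidylate synthase, came nearest, with 0.65 ± 0.18 with AG120 over both AZA levels (adjusted p = 0.0558).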
